A study of Mus musculus with 6 samples.

Results

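Pancreatic acinar cells release digestive enzymes when a secretagogue reaches a receptor on their surface and calcium leaves the endoplasmic reticulum (ER). The genes described here are 10 parts of that route, chosen by name: the receptors Cckar, Chrm3, Chrm1 and Sctr, the G protein subunits Gnaq and Gna11, the inositol trisphosphate (IP3) receptors Itpr1, Itpr2 and Itpr3, and the calcium pump Atp2a2. They were picked for their role and not by a measured value, and all 10 were found among the 55367 gene symbols of the deposited tables. RNA was sequenced from 6 libraries of mouse acinar cells, 300 sorted GFP-positive cells each, made with a modified Smart-seq2 protocol (full-length cDNA from few cells) with 12 preamplification cycles. All libraries belonged to 1 group. The mice carried Pdx1-Cre; Klf5-mCherry-CreERT2, the label gives their treatment as none, and the study offers no treated or mutant group to compare. Pdx1-Cre is active in the progenitors of the whole pancreatic epithelium, duct and islet cells included, and the genotype label names no GFP reporter. Age, sex and the number of mice are not given in the sources used here, and since no label ties a library to its own mouse, p-values below measure only the spread between these samples.

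In acinar cells, cholecystokinin and acetylcholine bind receptors that act through Gq and G11. These G proteins switch on phospholipase C, which makes IP3, and IP3 opens IP3 receptors in the ER membrane so that calcium rises in the cytosol and granules of enzyme precursor are released. The calcium pump of the ER then returns calcium to the store. Secretin acts by another branch, through Gs and cyclic AMP, and is best known in the pancreas for fluid and bicarbonate secretion by duct cells.

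The names of the libraries carry a number that no label explains. By it replicates 4 to 6 form set B and replicates 1 to 3 form set A, which were treated as a possible batch. Total counts were 4670819 to 7072270 in set B and 5552288 to 7053088 in set A. Ribosomal RNA took 59.9 to 60.9% of the counts in set B and 38.1 to 46.8% in set A. The counts cover whole gene spans, introns included, so each library's background was taken as the counts per Mb in 1489 odorant and pheromone receptor genes, which acinar cells are not known to use. It was 52.3, 326 and 109 counts per Mb in replicates 4, 5 and 6 of set B, against 26.4, 26.8 and 39.2 in replicates 1, 2 and 3 of set A. Replicate 5 therefore stood apart, with the highest background and the fewest counts. All 10 listed acinar markers were over 3 times background in every library, with a summed level of 115992 to 181350 TPM in set B and 296232 to 341447 TPM in set A. Listed endocrine markers summed to 42.8 to 2227 TPM in set B and 9.53 to 39.6 TPM in set A. Ductal markers summed to 53.0 to 175 TPM in set B and 69.8 to 104 TPM in set A. Few genes carried these sums, as only Ins1, Ins2 and Gcg of the endocrine and Spp1 and Muc1 of the ductal list reached a mean of 10 TPM. Of 10 markers in each list, 1 endocrine and 5 ductal markers were over 3 times background in every library. In bulk libraries, fewer cells of a type and less RNA per cell cannot be told apart. Levels below are in TPM, that is counts divided by exon length and scaled to the same total in each library, unless the length of the gene span is named.

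Cckar, the receptor for cholecystokinin, was the highest of the 10 genes. It was read at 66.4, 52.0 and 71.8 TPM in replicates 4, 5 and 6 of set B, against 64.5, 65.2 and 57.1 TPM in replicates 1, 2 and 3 of set A. The sets overlapped by this measure, and replicate 5 was lowest. The mean was 62.8 ± 7.10 TPM (SD, n = 6), which placed Cckar at rank 144 of 21949 protein-coding nuclear genes, in the top 0.656%. Its coefficient of variation of 11.3% was the lowest of the 10 genes by exon length, and counting error alone would give 3.70%. The spread depended on the setting, at 63.4 ± 6.69 TPM with the expected background taken off and 34.7 ± 8.19 TPM by gene span (SD, n = 6). The gene is short, at chr5:53697776-53707705 on the minus strand of mm10 with a span of 9930 bases and 3682 exon bases, and the expected background made up 0.121% of its 4777 counts. Even in replicate 5 its 411 counts were 127 times the background expected there.

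Chrm3 encodes the muscarinic receptor M3, which takes the acetylcholine signal of the vagus nerve in acinar cells. Its levels were 19.2, 21.8 and 18.8 TPM in set B and 10.4, 13.3 and 16.2 TPM in set A. Every set B library lay above every set A library by exon length. With the expected background taken off, the sets overlapped, at 18.04, 10.4 and 16.4 TPM in set B and 9.97, 12.7 and 15.4 TPM in set A, as they did by gene span. The mean was 16.6 ± 4.18 TPM (SD, n = 6), rank 413, in the top 1.88%. Chrm3 is a long gene, chr13:9875486-10360847 on the minus strand, whose span of 485362 bases is 77.6 times its exon length. The background expected over that span came to 13.8% of its 2042 counts, and in replicate 5 its 292 counts were 1.84 times the background, against 7.54 to 16.0 times in the other set B libraries and 19.97 to 22.5 times in set A. Counted per base of gene span instead of exon, Chrm3 dropped to 0.305 TPM and to the top 21.8% of genes, while Cckar stayed in the top 0.697%.

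Chrm1, for the M1 muscarinic receptor, had few reads, with 2, 12 and 7 counts in set B and 9, 3 and 5 counts in set A. Exact Poisson 95% intervals, which cover counting error only, ran from 0.242 to 7.23 counts for the 2 counts of replicate 4 and from 6.20 to 21.0 for the 12 counts of replicate 5. The mean level was 0.321 ± 0.280 TPM (SD, n = 6), in the top 59.03% of genes, and without replicate 5 it was 0.213 TPM. Sctr, for the secretin receptor, was read at 2.35, 3.94 and 1.46 TPM in set B and 0.784, 0.901 and 1.33 TPM in set A, with a mean of 1.79 ± 1.19 TPM (SD, n = 6). Set B lay above set A without overlap, with replicate 5 highest, but with the expected background taken off replicate 5 dropped to 0 TPM and replicate 6 to 0.561 TPM, below all of set A. These levels rest on 66 counts in all, of which the expected background would give 49.8%, and in replicate 5 the 17 counts were 0.919 times the background.

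Among the receptors Cckar led in each library. Cckar exceeded Chrm3 by 1.89 ± 0.45 on the log2(TPM + 1) scale (SD, n = 6) in 6 of 6 libraries, and the ratio of their mean TPM was 3.79 (exact two-sided sign-flip test, p = 0.03125, adjusted p = 0.0357 over the 8 pairs of genes compared). That p is the smallest 6 libraries can give. Cckar exceeded Sctr by 4.60 ± 0.66 in 6 of 6 libraries and Chrm3 exceeded Chrm1 by 3.72 ± 0.36 in 6 of 6 libraries, with the same exact p and adjusted p. With gene span as the length, the gap between Cckar and Chrm3 was 4.74, and that between Chrm3 and Chrm1 was 0.19 with an adjusted exact p of 0.0625. By that length Chrm3 averaged 0.305 TPM and Chrm1 0.146 TPM, under the 1 added before the log, which shrinks their difference. Of the summed level of the 4 receptors Cckar held 77.1 ± 6.43% in exon-length TPM and Chrm3 20.3 ± 4.80%, and with gene span Cckar held 98.3%.

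The other muscarinic genes were low. Chrm3 made up 94.6 ± 4.51% of the summed level of the 5 muscarinic receptor genes (SD, n = 6), from 86.3 to 98.8%, against 63.5 ± 20.3% with gene span. Chrm4 had no count in any library, where 3 counts would correspond to 0.424 to 0.642 CPM, counts scaled to the same total without regard to length. Cckbr, the receptor for gastrin and cholecystokinin, averaged 1.04 ± 1.25 TPM (SD, n = 6), and 52.4% of its counts matched the expected background. Among 16 other receptors that acinar cells may carry, 5 reached a mean of 1 TPM and 1 was over 3 times background in all 6 libraries. The highest of the 16 by mean was Grpr, for the receptor of gastrin-releasing peptide, at 2.76 ± 0.594 TPM (SD, n = 6). It was over 3 times background in 5 of 6 libraries. The lowest was Piezo1, a mechanically gated channel, listed at 0. All exon bases of Piezo1 lie inside the spans of other symbols, so no absence can be read from that 0.

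**Figure D1:**
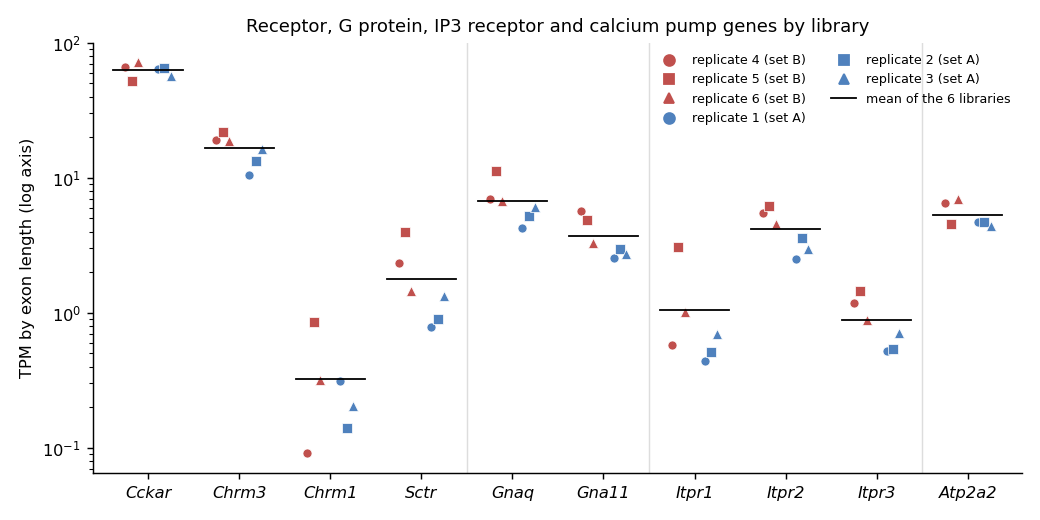
Levels of the 10 genes in TPM by exon length (log axis), with a point for each library, set B in red and set A in blue, and a line at the mean of the 6 libraries. Cckar lay between 52.0 and 71.8 TPM in all libraries, Chrm3 between 10.4 and 21.8 TPM, and replicate 5 was the highest library for Chrm3, Chrm1, Sctr, Gnaq, Itpr1, Itpr2 and Itpr3.

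Gnaq and Gna11 encode the alpha subunits of Gq and G11, which pass the signal of CCK and M3 receptors on to phospholipase C. Their coding sequences in the GENCODE M21 transcripts are alike, 867 of 1077 bases (80.5%), the closest pair among those compared here. Their longest shared run was 38 bases, shorter than the 44 bases shared by the calcium pump genes Atp2a2 and Atp2a3. Reads within such runs can align to both genes of a pair, and the sources used here do not say how reads with more than 1 alignment were counted.

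Gnaq had 145, 148 and 141 counts in set B and 117, 107 and 142 counts in set A. In TPM this was 6.92, 11.1 and 6.69 in set B and 4.27, 5.23 and 6.13 in set A, with a mean of 6.73 ± 2.38 TPM (SD, n = 6), rank 964. Set B lay above set A without overlap, and with the expected background taken off the sets overlapped, at 6.31, 5.11 and 5.42 TPM in set B and 4.03, 4.90 and 5.71 TPM in set A. Gnaq spans 254633 bases, 41.2 times its exon length, and in replicate 5 its 148 counts were 1.78 times the background of 83.1 counts expected there. Gna11 was read at 5.69, 4.89 and 3.30 TPM in set B and 2.53, 2.95 and 2.74 TPM in set A, also without overlap, which was kept with the background taken off and lost by gene span, with a mean of 3.68 ± 1.30 TPM (SD, n = 6), rank 1869. It is short, with a span of 16467 bases (4.02 times its exon length), and was 8.00 to 91.7 times background in set B and 65.1 to 106 times in set A.

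The order of the pair depended on the length by which counts were divided. By exon length Gnaq exceeded Gna11 by 0.72 ± 0.29 on the log2(TPM + 1) scale (SD, n = 6) in 6 of 6 libraries (exact sign-flip test, p = 0.03125, adjusted p = 0.0357), and held 64.5 ± 5.46% of their summed level. By gene span the difference turned to -0.89 in 6 of 6 libraries with the same adjusted exact p, and Gnaq held 15.4 ± 2.85%. With the expected background taken off and exon length kept, Gnaq held 60.2 ± 5.96%. No order of the pair held for both lengths. Gna14, for another alpha subunit of the Gq class, averaged 7.31 ± 2.37 TPM (SD, n = 6), close to Gnaq, with 20.7% of its counts matched by background, and it was picked out after its values were seen.

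Of 18 other G protein and cyclic AMP genes, 10 reached a mean of 1 TPM and 6 were over 3 times background in all 6 libraries. Gng5, a gamma subunit, was highest at 10.7 ± 2.97 TPM (SD, n = 6). Gnb2, a beta subunit, was listed at 0, but all its exon bases lie inside other symbols' spans. Of 17 genes of phospholipase C and IP3 metabolism, 9 reached a mean of 1 TPM, and only Cdipt, the phosphatidylinositol synthase, was over 3 times background in every library, at 5.47 ± 1.42 TPM (SD, n = 6). The lowest was Plcg1, a phospholipase C acting downstream of tyrosine kinases, at 0.176 ± 0.057 TPM, with 93.2% of its exon bases inside other symbols' spans. Plcb1 and Plcb4, the phospholipase C genes of the Gq route with the highest levels, averaged 5.43 ± 1.14 and 3.45 ± 1.53 TPM (SD, n = 6), with 33.5 and 34.98% of their counts matched by background and 51.5% of the exon bases of Plcb1 inside other symbols' spans, and were also picked out after their values were seen.

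**Figure D2:**
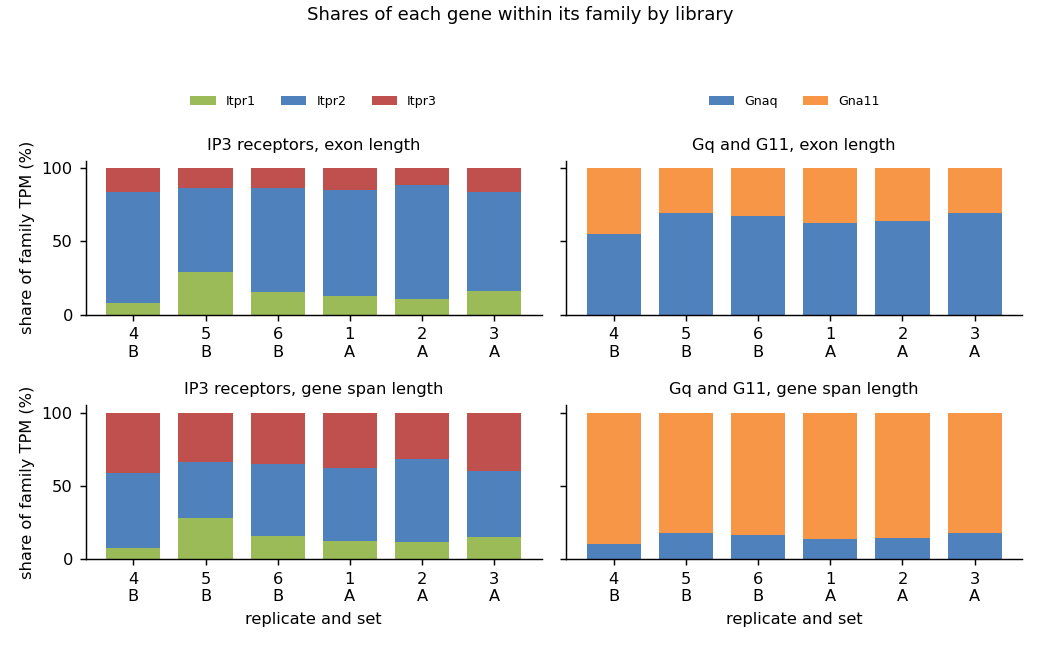
Share of the summed TPM (%) of the 3 IP3 receptor genes and of Gnaq with Gna11 in each library, by exon length in the upper row and gene span in the lower row, with set B left of set A. Itpr2 held 57.6 to 77.3% of the IP3 receptor level by exon length, and Gnaq held 54.9 to 69.5% by exon length and 10.6 to 18.2% by gene span of its pair.

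The IP3 receptors are the calcium release channels of the ER, and Itpr2 and Itpr3 are known as the main forms of acinar cells in mice. Itpr2 was the highest of the 3 genes, with 5.44, 6.14 and 4.54 TPM in set B and 2.51, 3.57 and 2.97 TPM in set A. Set B lay above set A without overlap, but with the expected background taken off replicate 5 was the lowest library, at 2.18 TPM, and by gene span the sets overlapped too. Its mean was 4.20 ± 1.43 TPM (SD, n = 6), rank 1585, from 1202 counts. The gene spans 393925 bases at chr6:146108299-146502223 on the minus strand, the background expected there was 19.0% of its counts, and in replicate 5 it was at 1.52 times background against 5.32 and 13.3 times in the other set B libraries and 10.7 to 16.6 times in set A.

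Itpr3 was read at 1.18, 1.45 and 0.879 TPM in set B and 0.525, 0.536 and 0.710 TPM in set A, again without overlap, with a mean of 0.879 ± 0.370 TPM (SD, n = 6). With the expected background taken off, replicate 5 was at 0.367 TPM, below all of set A. It is the shortest of the 3 genes, with a span of 64920 bases, and its 152 counts were over 3 times background in 5 of 6 libraries, the exception being replicate 5 at 1.32 times. Itpr1, the form best known from Purkinje neurons, was read at 0.580, 3.08 and 1.01 TPM in set B and 0.443, 0.511 and 0.699 TPM in set A. The sets overlapped, and replicate 5 stood far above the rest. There it had 121 counts (exact Poisson 95% interval 100.4 to 144.6), against an expected background of 110.4, a ratio of 1.10. Its mean was 1.05 ± 1.01 TPM (SD, n = 6) with all libraries and 0.649 TPM without replicate 5. Of all its 335 counts the expected background was 58.6%.

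Itpr3 was lower than Itpr2 by a log2(TPM + 1) difference of -1.44 ± 0.18 (SD, n = 6) in 6 of 6 libraries, and the ratio of mean TPM was 0.209 (exact sign-flip test, p = 0.03125, adjusted p = 0.0357). Itpr2 exceeded Itpr1 by 1.40 ± 0.41 in 6 of 6 libraries with the same exact p. Itpr3 and Itpr1 were not told apart, with a difference of -0.04 ± 0.39, higher for Itpr3 in 4 of 6 libraries (exact sign-flip test, p = 0.8125). Replicate 5 gave -0.74 and the other libraries -0.10 to 0.46. With the background taken off, the difference turned to 0.23 with Itpr3 higher in 6 of 6 libraries (adjusted exact p = 0.03125), and with gene span to 0.12 (adjusted exact p = 0.0357). By gene span Itpr3 averaged 0.170 TPM and Itpr1 0.0761 TPM, both under the added 1, which shrinks that difference. Itpr2 held 70.2 ± 7.06% of the summed IP3 receptor level, Itpr1 15.4 ± 7.23% and Itpr3 14.4 ± 1.82% (SD, n = 6). With the background taken off these shares were 76.3, 9.29 and 14.4%, and by gene span 48.3, 15.2 and 36.5%, so Itpr2 was first under each.

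Of 11 genes whose products bind or tune IP3 receptors, 8 reached a mean of 1 TPM and 3 were over 3 times background in all libraries. The highest was Erp44, an ER protein that binds an IP3 receptor, though not known here to bind each of the 3, at 11.1 ± 2.27 TPM (SD, n = 6). Among 9 other channels that can release calcium from stores, 3 reached a mean of 1 TPM, led by Tmco1, an ER calcium leak channel, at 3.40 ± 0.291 TPM. The lowest was Ryr1, the ryanodine receptor of skeletal muscle, at 0.291 ± 0.466 TPM, with 72.2% of its counts matched by background.

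**Figure D3:**
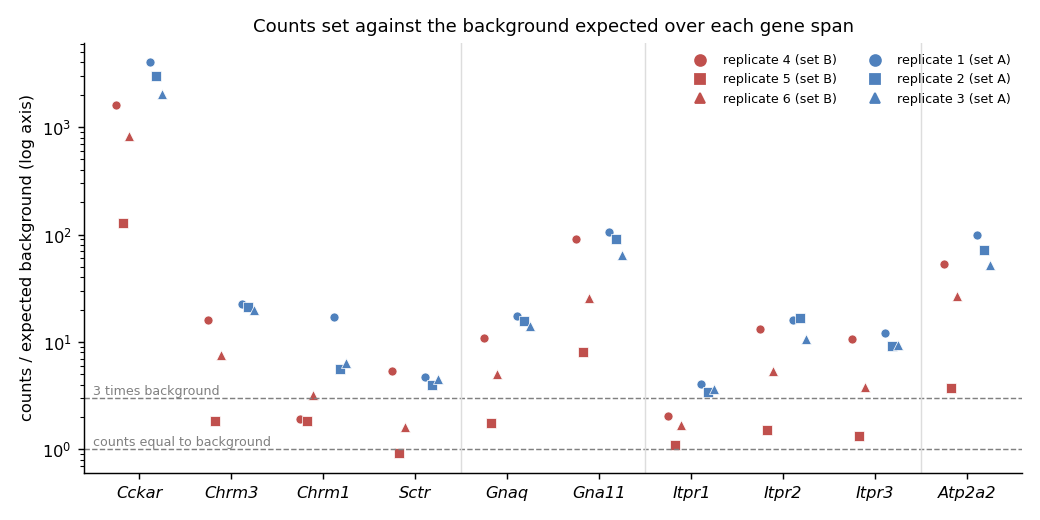
Counts of each gene divided by the background expected over its span (log axis), with a point for each library, set B in red and set A in blue, and dashed lines at background and at 3 times background. Cckar, Gna11 and Atp2a2 were above the upper line in all 6 libraries, and replicate 5 was the lowest library for all 10 genes.

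Atp2a2 encodes SERCA2, the pump that returns calcium to the ER. Its levels were 6.55, 4.52 and 6.95 TPM in set B and 4.71, 4.67 and 4.39 TPM in set A. The sets overlapped by this measure, through replicate 5. The mean was 5.30 ± 1.14 TPM (SD, n = 6), rank 1241, in the top 5.65%, and the background expected over its span of 48713 bases was 4.29% of its 659 counts. Other symbols' spans covered 20.1% of the Atp2a2 span and 1.36% of its exon bases. Atp2a2 exceeded Atp2a3, for the related pump SERCA3, by 2.10 ± 0.36 on the log2(TPM + 1) scale (SD, n = 6) in 6 of 6 libraries (exact sign-flip test, p = 0.03125, adjusted p = 0.0357). Atp2a2 averaged 10.7 times the TPM of Atp2a3, whose mean was 0.495 ± 0.412 TPM and whose 47 counts were matched by background for 39.4%. Atp2a2 held 89.3 ± 9.71% of the summed level of the 3 SERCA genes by exon length and 86.0% by gene span.

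Of 13 other pumps and exchangers, 3 reached a mean of 1 TPM, led by Atp2c2, a calcium and manganese pump of the secretory pathway, at 5.61 ± 2.25 TPM (SD, n = 6). Pln and Sln, small inhibitors of the pump known from muscle, were listed at 0, and all exon bases of Pln lie inside other symbols' spans. Of 13 genes of store-operated entry, by which cells refill their stores from outside, 8 reached a mean of 1 TPM. The highest was Saraf, which turns that entry down, at 17.05 ± 5.74 TPM, and the lowest was Cracr2b, listed at 0 with 96.5% of its exon bases inside another symbol's span. Of 11 genes of mitochondrial calcium uptake, 9 reached a mean of 1 TPM, from 21.7 ± 3.45 TPM for Smdt1, an essential subunit of the uniporter, to 0.862 ± 1.03 TPM for Mcub, its dominant-negative subunit. The expected background was 169% of the 19 counts of Mcub.

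ER calcium buffers and chaperones were the highest list of the pathway, with 10 of 12 genes over 3 times background in all libraries. P4hb, protein disulfide isomerase, averaged 265 ± 31.7 TPM (SD, n = 6), above Cckar. Sdf2l1, a cofactor of ER chaperones, averaged 53.8 ± 7.14 TPM, Sel1l, of ER-associated degradation, 47.8 ± 9.39 TPM and Hspa5, the ER chaperone BiP, 40.5 ± 6.78 TPM. The luminal calcium buffer Calr was at 23.6 ± 8.37 TPM, the chaperones Hsp90b1 at 21.5 ± 5.90 TPM, Canx at 16.8 ± 3.95 TPM and Pdia3 at 11.7 ± 1.76 TPM, and the lowest of the list was Rcn2, an ER calcium-binding protein, at 0.803 ± 0.266 TPM. Of the exon bases of Hsp90b1, 60.8% lie inside other symbols' spans. Of 20 genes that respond to cytosolic calcium, 12 reached a mean of 1 TPM, with the calmodulin gene Calm2 at 13.5 ± 2.701 TPM and, lowest of the list, Camkk2, a calmodulin-dependent kinase, at 0.612 ± 0.496 TPM. In all, 78 of the 144 other genes found reached a mean of 1 TPM, 14 reached 10 TPM and 34 were over 3 times background in all libraries. The median of these genes' mean levels was 1.06 TPM, against 3.94 TPM for the 10 genes described here and 0.491 TPM for protein-coding genes as a whole.

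**Figure D4:**
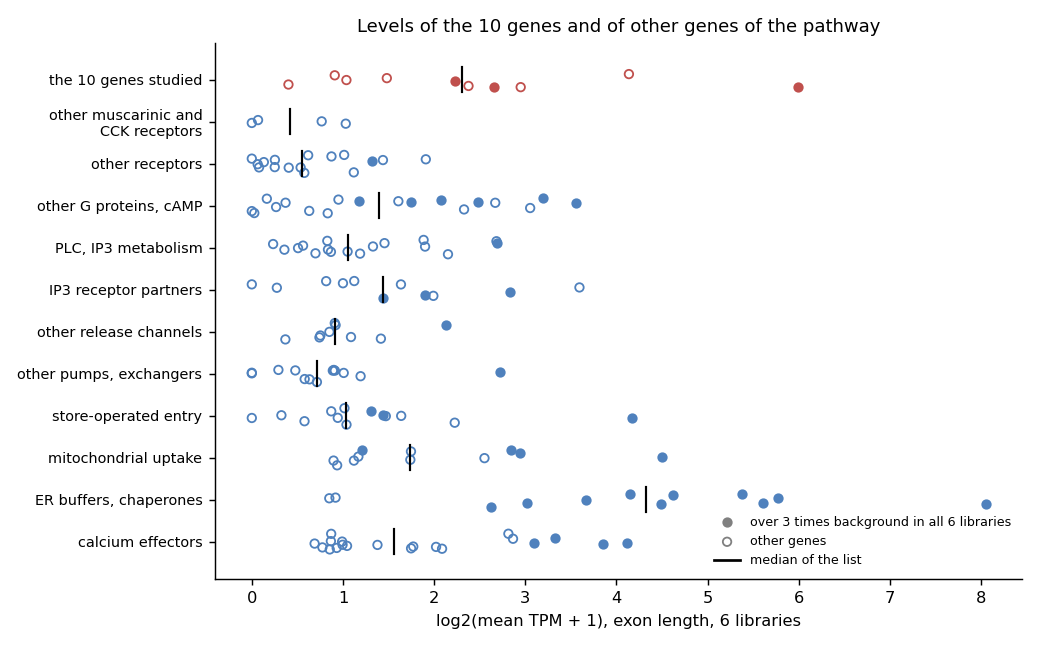
Mean levels of the 10 genes (red) and of 144 other genes of the pathway (blue) as log2(mean TPM + 1), with a circle for each gene, filled where the gene was over 3 times background in all 6 libraries, and a bar at each list's median. Cckar, at 62.8 TPM, was exceeded by P4hb alone, at 265 TPM, and the ER buffer list had the highest median.

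Set against one another by exon length, the 10 genes ran from Cckar through Chrm3, Gnaq, Atp2a2, Itpr2, Gna11, Sctr, Itpr1 and Itpr3 to Chrm1. A step between neighbours was taken as beyond their spread where the mean difference was over 1 SD. That held between Cckar and Chrm3, Chrm3 and Gnaq, Gna11 and Sctr, Sctr and Itpr1, and Itpr3 and Chrm1. The 4 genes Gnaq, Atp2a2, Itpr2 and Gna11 lay within the spread of their neighbours, with steps of 0.26 ± 0.46, 0.30 ± 0.37 and 0.15 ± 0.17 on the log2(TPM + 1) scale, as did Itpr1 and Itpr3 at 0.04 ± 0.39 (SD, n = 6). By gene span the order was Cckar, Gna11, Atp2a2, Chrm3, Gnaq, Itpr2, Itpr3, Chrm1, Sctr and Itpr1, with Gna11 at 1.30 TPM, Atp2a2 at 0.964 TPM and Itpr1 at 0.0761 TPM. By the longest coding transcript Itpr1 came before Sctr, with a step of 0.007 ± 0.35. With the expected background taken off and exon length kept, Gna11 came before Itpr2, with a step of 0.11 ± 0.35. Itpr3 then came before Itpr1, with a step of 0.23 ± 0.22, and next after Sctr, with a step of 0.10 ± 0.33. Cckar was first by each of these measures, and 80% of the 10 genes reached a mean of 1 TPM by exon length, against 32.2% of protein-coding genes. With the expected background taken off, Sctr at 0.801 TPM and Itpr1 at 0.367 TPM were under that level. Cckar, Gna11 and Atp2a2 were over 3 times background in all 6 libraries, which is 30% of the 10 genes against 12.3% of protein-coding genes. Chrm3, Gnaq, Itpr2 and Itpr3 were so in 5 of 6 libraries, with replicate 5 below the line, Chrm1 and Sctr in 4 and Itpr1 in 3.

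**Figure D5:**
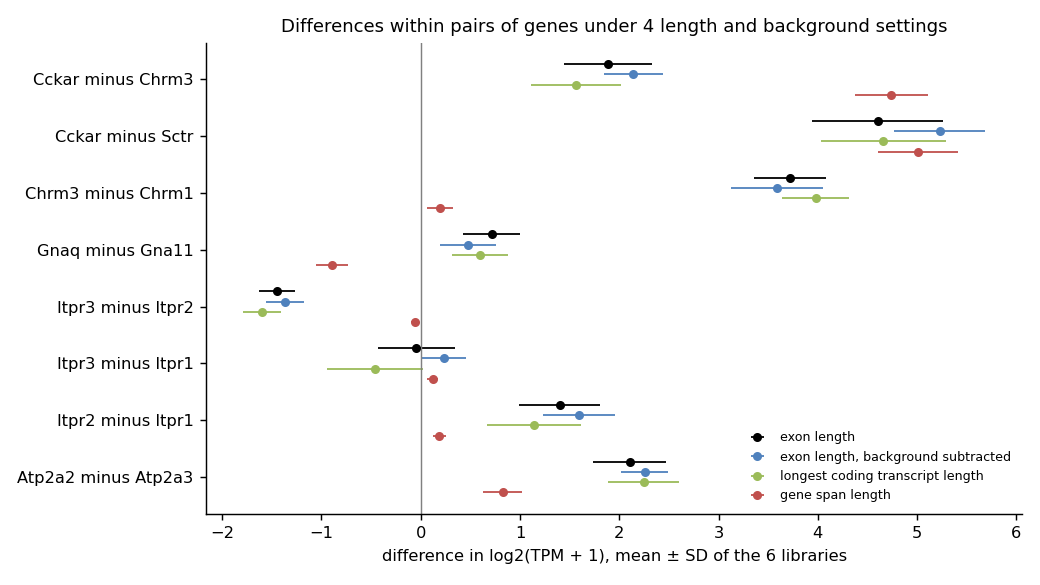
Differences within the 8 pairs on the log2(TPM + 1) scale, as mean ± SD of the 6 libraries, by exon length (black), with background subtracted (blue), by the longest coding transcript (green) and by gene span (red). Gnaq minus Gna11 was 0.72 by exon length and -0.89 by gene span, while Cckar minus Chrm3 was above 0 in these 4 settings. Except for Cckar and Gna11, mean levels by gene span were under the added 1, which shrinks differences on this scale.

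Between the sets, no member passed the test. Of 8723 genes past the filter on low counts, edgeR's quasi-likelihood test with Benjamini-Hochberg adjustment called 1 gene higher in set B, Top2a of the cell cycle, named after its value was seen, and 0 lower, a share of 0.0115%. Of the 9 members tested 0 were called, and 0 had an unadjusted p under 0.05, against 25.9% of all genes tested. DESeq2 called 794 genes higher and 227 lower, 11.7%, and again 0 members. Also 0 members were called in edgeR with no filter on low counts (3.33% of genes), without replicate 4 (22.6%) or without replicate 5 (8.12%). The log2 differences, set B over set A, ran from -0.45 ± 0.31 (SE) for Cckar (adjusted p = 0.389) to 0.82 ± 0.45 for Itpr1 (adjusted p = 0.283). For Chrm3 it was 0.07 ± 0.26 (adjusted p = 0.885), for Sctr 0.77 ± 0.46 (adjusted p = 0.321) and for Itpr3 0.45 ± 0.33 (adjusted p = 0.425). Itpr2 was at 0.32 ± 0.25, Gna11 at 0.26 ± 0.32, Gnaq at 0.11 ± 0.25 and Atp2a2 at -0.07 ± 0.32, with adjusted p of 0.451 to 0.914 in the same test. Chrm1 did not pass the filter. The difference was above 0 for 7 of 9 members, with a median of 0.26, against 49.7% of all genes tested and a median of -0.00. Without replicate 4 it was above 0 for 4 of 9 members, with a median of -0.0053, and with no filter on low counts for 5 of 10, with a median of -0.09 against 0.77 over all genes.

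In TPM the picture between the sets differed with the length and scaling. By exon length Chrm3, Sctr, Gnaq, Gna11, Itpr2 and Itpr3 were above set A in every set B library. Of the 8 members that reached a mean of 1 TPM this held for 5, against 32.5% of the protein-coding genes at that level. No member lay below set A in every set B library, against 6.7% of those genes. Itpr1, not among the 5, was among the 8 only through set B, as its mean in set A was 0.551 TPM. Sctr, among the 5, averaged 0.801 TPM with the expected background taken off. The count of members above set A turned on the setting. With the expected background taken off, 1 of these 8 members, Gna11, was above set A in every set B library, against 10.9% of the protein-coding genes. By gene span 0 of 8 were, against 12.3%. There 1 of the 8, Cckar, lay below set A in every set B library, against 21.4% of the protein-coding genes. Scaled outside ribosomal RNA, all 8 lay above set A in every set B library, against 61.3%. Itpr2 averaged 5.37 ± 0.800 TPM in set B and 3.02 ± 0.531 TPM in set A (SD, n = 3 each), and Cckar 63.4 ± 10.2 TPM in set B and 62.3 ± 4.51 TPM in set A. Scaled outside ribosomal RNA, Cckar averaged 131 ± 16.6 TPM in set B and 87.5 ± 3.70 TPM in set A, and Atp2a2 12.3 ± 2.23 TPM in set B and 6.45 ± 0.158 TPM in set A (SD, n = 3 each). Beside these values, the summed acinar marker level was lower in set B, and its background and ribosomal RNA share were higher, as given above. The endocrine marker level was also higher there, but narrowly, at 42.8 TPM or more in set B and 39.6 TPM or less in set A. Ductal marker levels overlapped between the sets. The part of the marker levels in the differences was not tested.

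As a description over these 6 libraries, the protein-coding genes whose log2(TPM + 1) followed Cckar most closely, among 342 with a mean of 20 TPM or more, were Rpl8, a ribosomal protein gene, with a Pearson r of 0.994, Nucb2, for a calcium-binding protein of the secretory pathway, with 0.957, and Tram1, of the ER translocation site, with 0.955. Those closest to Chrm3, among 343, were Tmtc2 with 0.948, Sspn with 0.936 and the ribosomal protein gene Rpl38 with 0.923. The points share their library, its depth and its background, and replicate 5 is the lowest point for Cckar and the highest for Chrm3.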

How the data were processed

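RNA-seq libraries of sorted mouse acinar cells (6 samples, 1 group) were analysed. Per the submitters' processing notes, reads were handled with Trim Galore 0.6.4, FastQC, STAR 2.7.9a, SAMtools and featureCounts on build mm10. The files deposited by the authors give raw, whole-number counts for each gene symbol. Their deposited Length column, a quantity of another kind, is the length of the counted interval, introns included, for each of the 55253 symbols that have 1 interval. The annotation release, strand setting and read length are not given in the sources used here. The molecule is labelled as genomic DNA.

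TPM was computed from counts and GENCODE M21 exon lengths (55141 of 55367 symbols, 99.997% of counts), scaled over all genes with ribosomal RNA included. Expected background was the counts per Mb over 1489 receptor genes (12.98 Mb, 7537 counts) multiplied by gene span. TPM by exon length is raised by intron reads and by background, most for genes with long introns. Total counts of 4670819 to 7072270 set the precision, and a floor of 3 counts was used.

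The 8 pairs were tested on within-library differences by enumerating all 64 sign patterns (exact sign-flip test, two-sided) with Benjamini-Hochberg adjustment at a threshold of 0.05. Set B was set against set A by edgeR's quasi-likelihood test (version 4.0.16) after TMM scaling and filterByExpr. Both tests were also run on simulated data, with normal differences for the sign-flip test and a common dispersion for edgeR. Those data held no background tied to a set, so they do not show how the tests behave on these libraries. Genes and lists were chosen with earlier results of these data known. Named were the 10 genes, the other pathway genes reaching a mean of 10 TPM, the highest and lowest gene of each of 11 lists, and the 3 genes most like Cckar and Chrm3. Some results that this rule takes are not reported here. Of 147 listed pathway genes 144 were found by symbol. Alternatives were a pseudocount of 0.1 instead of 1, gene span as length, background subtracted, scaling outside ribosomal RNA, each replicate left out, DESeq2 1.42.0, its size factors in edgeR, no filter on low counts and no ribosomal RNA genes. The longest coding transcript as length, and background subtracted with gene span, were added after seeing the data. R 4.3.3, limma 3.58.1, scipy 1.17.1, pandas 2.3.3, Biopython 1.88, matplotlib 3.10.9, numpy 2.4.6 and Python 3.11.15 were used.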

Additional observations from a re-analysis of the deposited data

Results flagged for a closer look

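In 2 genes the highest library stood apart from the other 5 by more than the Dixon critical value of 0.625 for 6 samples on the log2(TPM + 1) scale. For Chrm1 the gap was 0.648 of the whole range, and for Itpr1 it was 0.681. In both the high library was replicate 5, with 12 counts of Chrm1 and 121 of Itpr1. That library also had the highest background, at 326 counts per Mb, and its counts were 1.86 times the expected background for Chrm1 and 1.10 times for Itpr1. Such a gap arises by chance in a small share of groups of 6, and the levels of 10 genes and the differences of 8 pairs were looked at.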

How the results depend on the processing

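The order by level rests on the length used, and the background of replicate 5 limits every long gene. Gene span as length turned Gnaq minus Gna11 to -0.89 (adjusted exact p = 0.0357) and Itpr3 minus Itpr1 to 0.12 (0.0357), and gave 0.19 for Chrm3 minus Chrm1 (0.0625). Levels under 1 TPM are small beside the pseudocount of 1, so differences between such levels by gene span are shrunk. The pseudocount of 0.1 was run with exon length only. Background subtraction turned Itpr3 minus Itpr1 to 0.23 (0.03125). Together with gene span, added after seeing the data, it gave -0.92 for Gnaq minus Gna11, 0.13 for Itpr3 minus Itpr1 and 0.19 for Chrm3 minus Chrm1. The cause was not tested. The other pair values, 41 in all with no library left out, kept their direction and their side of the threshold.

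Leaving out 1 library left 5, where the smallest exact p is 0.0625, so no pair could pass. The differences then ran from 1.76 to 2.02 for Cckar minus Chrm3, 4.48 to 4.84 for Cckar minus Sctr, 3.62 to 3.84 for Chrm3 minus Chrm1, 0.65 to 0.81 for Gnaq minus Gna11, -1.49 to -1.42 for Itpr3 minus Itpr2, -0.14 to 0.10 for Itpr3 minus Itpr1 (0.10 without replicate 5), 1.28 to 1.52 for Itpr2 minus Itpr1 and 2.03 to 2.23 for Atp2a2 minus Atp2a3. All 60 levels moved by less than 1 SD.

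By gene span the mean levels were 34.7 TPM for Cckar, 0.305 for Chrm3, 0.0862 for Sctr, 0.231 for Gnaq, 1.30 for Gna11, 0.222 for Itpr2, 0.1701 for Itpr3 and 0.964 for Atp2a2. Scaled outside ribosomal RNA they were 109 for Cckar, 0.605 for Chrm1, 30.1 for Chrm3, 3.42 for Sctr, 12.3 for Gnaq, 6.71 for Gna11, 7.71 for Itpr2, 1.63 for Itpr3 and 9.40 for Atp2a2. With background subtracted and gene span they were 34.7 for Cckar, 0.259 for Chrm3, 0.0422 for Sctr, 0.185 for Gnaq, 1.26 for Gna11, 0.0298 for Itpr1, 0.176 for Itpr2, 0.124 for Itpr3 and 0.918 for Atp2a2.

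Between the sets, DESeq2 called 794 genes higher and 227 lower, and edgeR without the filter 790 and 203, with a median log2 difference over all genes of 0.77 there. With 1 library left out the counts ran from 0 to 1656 higher and 0 to 561 lower, at 1656 and 561 without replicate 4, 366 and 369 with replicate 5 left out, and 0 in the other 4 cases. Members were called in none of these fits. The direction of uncalled differences turned for Chrm3 (-0.18 without the filter, -0.13 to 0.15 with 1 library left out), Gnaq (-0.19 without the filter, -0.078 to 0.19 with 1 library left out), Gna11 (-0.19 without replicate 4 to 0.42 without replicate 6) and Atp2a2 (-0.33 without replicate 4 to 0.19 without replicate 5). The comparison of set B with set A could not be paired, because no label ties their libraries to each other.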
